A study of Mus musculus with 4 samples.

Results

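Salivary epithelial transcription factors are described here through 9 genes chosen by symbol: the ETS family members Ehf, Elf3, Elf5 and Spdef, the basic helix-loop-helix factors Ascl3 and Bhlha15, and Sox9, Foxc1 and Barx2. They are 9 of the 34844 gene names on an Agilent whole mouse genome array, and 11 probes measure them. Expression was compared between salivary glands of mice without MyD88, the adaptor protein through which most Toll-like receptors signal, and of wild-type mice. There were 2 arrays labelled Myd88-KO and 2 labelled Wildtype. All mice were C57/BL6 females of 10 weeks, and the labels name submandibular plus sublingual glands as the tissue. The paper's array legend differs from the labels, since it names submandibular glands alone and more samples of each genotype than the arrays used here, so which glands the values stand for is uncertain. According to the study's methods, the null line had been backcrossed to this background and both genotypes were offspring of heterozygotes. The deletion is not restricted to a cell type, so MyD88 is lacking in every cell of the animal. The labels do not say whether samples were separate mice, so p-values may measure technical spread only.

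Acini of the salivary glands secrete saliva, and the ducts modify it. ETS factors of the epithelium-specific group (Ehf, Elf3, Elf5) and the related Spdef bind DNA around a GGAA core and are known from secretory epithelia. Bhlha15 (Mist1) builds the secretory machinery of serous cells, Ascl3 marks duct cells that include progenitors, and Sox9, Foxc1 and Barx2 act during the development of the gland or its neighbouring tissues.

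Sequences were read for members that turned out higher on both Myd88-KO arrays. Ehf is the member that 2 probes measured alike. The probe that starts at base 628 of its transcript is shown because the sequence lies upstream of the other Ehf probe and shares no run of 20 bases with a probe of any other gene name.
Ehf probe, transcript base 628, chr2:103114043-103114102 (mm9, minus strand): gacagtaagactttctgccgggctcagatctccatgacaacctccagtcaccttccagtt
The 250 bases before the start of Ascl3, Spdef and Elf5 (the first of 2 starts) are shown for the ETS core, written 5′ to 3′ with every GGAA, or TTCC for the other strand, in capitals (RefSeq, GRCm38.p6). No such entry was used for Ehf, Sox9 or Barx2.
Ascl3 promoter, chr7:109731733-109731982, minus strand: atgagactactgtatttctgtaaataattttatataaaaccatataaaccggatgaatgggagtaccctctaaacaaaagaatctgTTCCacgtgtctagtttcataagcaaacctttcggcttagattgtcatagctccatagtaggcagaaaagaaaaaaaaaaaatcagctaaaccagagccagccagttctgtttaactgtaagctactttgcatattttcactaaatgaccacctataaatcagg
Spdef promoter, chr17:27728952-27729201, minus strand: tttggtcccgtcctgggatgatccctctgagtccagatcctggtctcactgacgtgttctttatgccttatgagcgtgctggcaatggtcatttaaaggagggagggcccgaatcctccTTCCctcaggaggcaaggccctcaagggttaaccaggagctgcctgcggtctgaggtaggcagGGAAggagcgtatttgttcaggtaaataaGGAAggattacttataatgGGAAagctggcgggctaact
Elf5 promoter, chr2:103411848-103412097, plus strand: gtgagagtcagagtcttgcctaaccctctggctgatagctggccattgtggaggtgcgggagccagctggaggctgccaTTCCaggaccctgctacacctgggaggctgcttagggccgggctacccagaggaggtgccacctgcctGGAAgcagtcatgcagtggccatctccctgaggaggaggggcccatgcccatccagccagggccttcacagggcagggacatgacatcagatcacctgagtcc
The core occurred 1 time before Ascl3, 4 times before Spdef and 2 times before Elf5. It was present in 93.4% of 32851 mouse promoters of this length, with a median of 3 matches, so its presence does not set these promoters apart. The longer GGAAGT was found in none of these 3 windows and in 19.7% of all promoters. The E-box CAGCTG, which basic helix-loop-helix factors can bind, was found 1 time before Elf5 and in 13.0% of all promoters. These matches are letters in a window, not binding sites.

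Signals are given as log2 of the processed spot intensity minus the 75th percentile of the array, so 0 is the brightness of that percentile. A value can be compared between arrays for 1 probe, not between probes. In linear units that percentile stood at 256 and 237 for Myd88-KO and at 321 and 269 for Wildtype. Probes well above background made up 52.2% and 68.4% of all against 74.1% and 55.1%, and no spot was saturated. All 11 member probes were well above background on all 4 arrays and had no spot flagged as an outlier. The Myd88 probe read 1.51 and 1.41 on the arrays labelled Myd88-KO and 1.15 and 1.07 on those labelled Wildtype. The position of the deleted part against this 3′ probe was not checked, so its signal does not check the labels. Pan-epithelial markers (12 of 12), submandibular acinar markers (9 of 9 tested) and sublingual gland markers (5 of 5 tested) were well above background on all 4 arrays, and so were parotid gland markers (6 of 6 tested).

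**Figure D1:**
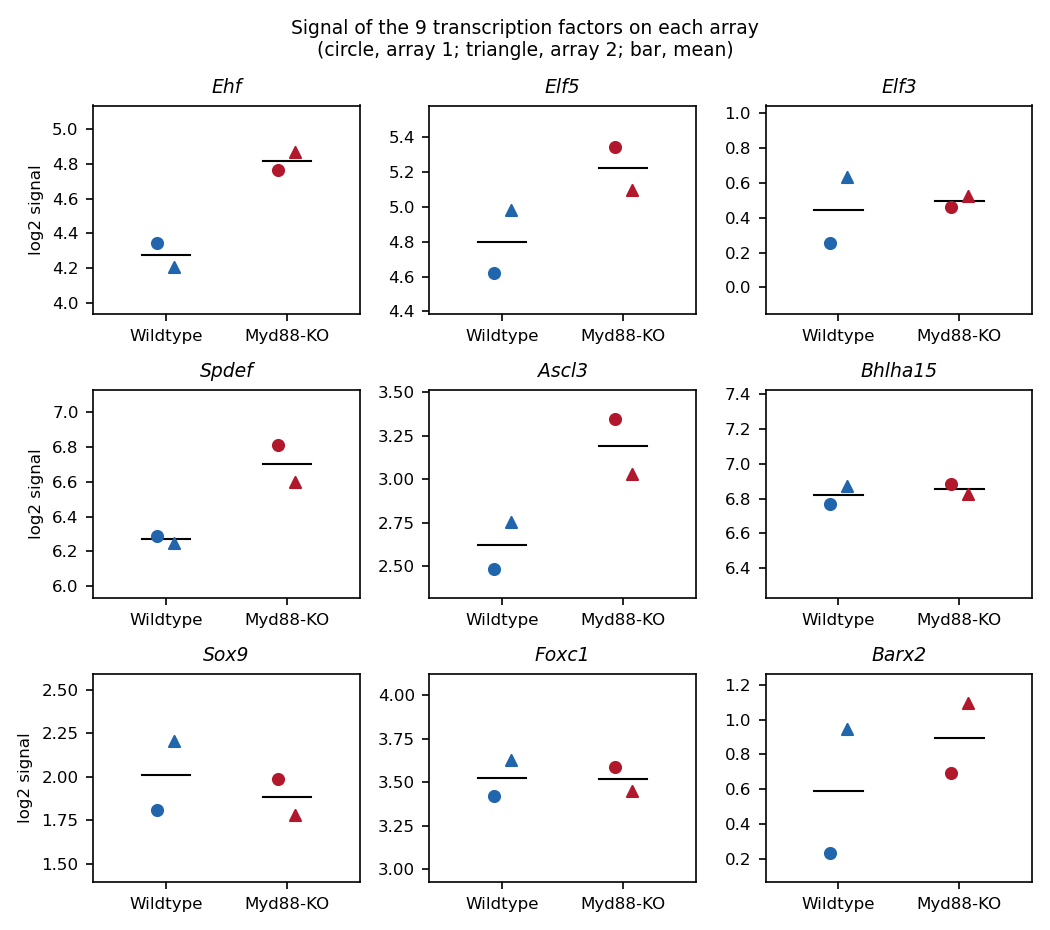
Each panel plots 1 transcription factor, with the log2 signal relative to the 75th percentile of the array on the vertical axis. Every panel spans the same range. Points are single arrays and bars are means of 2 arrays. For Ehf, Elf5, Spdef and Ascl3 both Myd88-KO points lie above both Wildtype points at this scaling, and for the other 5 genes the labels overlap.

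Among the ETS factors, Ehf, an epithelium-specific regulator of differentiation, had the smallest p of all 9 members. It read 4.76 and 4.86 on the arrays labelled Myd88-KO and 4.34 and 4.20 on those labelled Wildtype (probe at chr2:103106827-103106886, mm9). Both Myd88-KO arrays lay above both Wildtype arrays, and the arrays of each label lay close together. The difference was 0.54 on the log2 scale (SE 0.11, 95% interval 0.22 to 0.86, 1.45-fold, adjusted p = 0.209). The probe shown above read 3.73 and 3.82 against 3.33 and 3.22, a difference of 0.50. The labels were thus apart on both Ehf probes, which sit at different places of the transcript.

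Elf5, a regulator of secretory differentiation in mammary gland, lies next to Ehf on chromosome 2. It read 5.34 and 5.10 on the arrays labelled Myd88-KO and 4.62 and 4.98 on those labelled Wildtype (chr2:103290958-103291017, mm9). The labels did not overlap, but Myd88-KO array 2 and Wildtype array 2 were close. The difference was 0.42 (SE 0.19, 95% interval -0.11 to 0.95, adjusted p = 0.364).

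Elf3, also of the epithelium-specific group, read 0.46 and 0.53 on the arrays labelled Myd88-KO and 0.26 and 0.63 on those labelled Wildtype (chr1:137150328-137150387, mm9). The Myd88-KO arrays lay between the Wildtype arrays. The difference of 0.05 (SE 0.17, 95% interval -0.43 to 0.53, adjusted p = 0.909) took either sign under other scalings and was -0.14 without Wildtype array 1.

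Spdef, known for the maturation of mucous and goblet cells, read 6.81 and 6.60 on the arrays labelled Myd88-KO and 6.29 and 6.25 on those labelled Wildtype (chr17:27851401-27851460, mm9). The labels did not overlap, and the Wildtype arrays were almost level. The difference was 0.44 (SE 0.12, 95% interval 0.08 to 0.79, 1.35-fold, adjusted p = 0.253).

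Ascl3, the marker of duct cells with progenitor activity, had the largest difference of the 9. It read 3.35 and 3.03 on the arrays labelled Myd88-KO and 2.48 and 2.76 on those labelled Wildtype (chr7:116870981-116871040, mm9). The labels did not overlap, but arrays of 1 label were about as far apart as Myd88-KO array 2 was from Wildtype array 2. The difference was 0.57 (SE 0.18, 95% interval 0.06 to 1.08, 1.49-fold, adjusted p = 0.272).

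Bhlha15, the other basic helix-loop-helix member, was the most even of all. It read 6.88 and 6.82 on the arrays labelled Myd88-KO and 6.77 and 6.87 on those labelled Wildtype (chr5:144955175-144955234, mm9). The labels overlapped within a narrow range. The difference was 0.03 (SE 0.10, 95% interval -0.26 to 0.33, adjusted p = 0.900), below 0 under the other 5 ways of scaling or background correction, and -0.02 without Wildtype array 1.

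Sox9, an SRY-related factor of distal tips and progenitors in the developing gland, is measured by 10 spots of 1 probe on each array. It read 1.99 and 1.78 on the arrays labelled Myd88-KO and 1.81 and 2.21 on those labelled Wildtype (chr11:112648809-112648868, mm9). The SD between the 10 spots was 0.039 to 0.079, smaller than the gap between arrays of 1 label. The difference was -0.13 (SE 0.19, 95% interval -0.67 to 0.42, adjusted p = 0.776) and 0.07 without Wildtype array 2.

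Foxc1, a forkhead factor of mesenchyme and of glandular epithelium, read 3.59 and 3.45 on the arrays labelled Myd88-KO and 3.42 and 3.63 on those labelled Wildtype (chr13:31902423-31902482, mm9). The labels overlapped throughout. The difference was -0.01 (SE 0.13, 95% interval -0.38 to 0.37, adjusted p = 0.988), and it was 0.07 without Myd88-KO array 2 and 0.10 without Wildtype array 2.

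Barx2, a homeobox factor of glandular and muscle development, was the most variable member. It read 0.69 and 1.10 on the arrays labelled Myd88-KO and 0.23 and 0.95 on those labelled Wildtype (chr9:31653924-31653983, mm9). The array numbered 1 was lower within each label. The difference was 0.31 (SE 0.31, 95% interval -0.59 to 1.20, adjusted p = 0.669) and -0.05 without Wildtype array 1. A second Barx2 probe read -1.82 and -1.18 against -1.82 and -1.77, a difference of 0.29. Barx2 lies on chromosome 9, as Myd88 does, with 87591398 bases between their probes.

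None of the 9 members passed an adjusted p of 0.05 in limma, as was true of all 22312 genes tested (0%, smallest adjusted p 0.194). With 2 arrays a label, an exact permutation test of a single gene cannot go below p = 0.333. At an unadjusted p under 0.05, 3 of 9 members were higher on the arrays labelled Myd88-KO (Ehf, Spdef and Ascl3) and 0 were lower, against 9.82% of all genes higher and 6.83% lower (16.7% in either direction). Labels did not overlap, with Myd88-KO higher, for 4 of 9 members and for 33.2% of all genes tested (18.7% with Myd88-KO lower, 52% in either direction), so that count stands close to the background. Other processing called more genes after adjustment, 0.354% with normexp background correction, 1.8% with median scaling and 0.00448% with the methods' t-test, and 0 members in each. Trended and robust moderation called 2.16% of genes and 1 member, Ehf. Of the 9, 7 had a positive difference and the median of all 9 was 0.31, whereas 59.6% of all genes were positive with a median of 0.06. That summary depended on single arrays and on scaling. The members' median was -0.018 with 4 of 9 positive without Wildtype array 1, 0.11 with 8 positive without Myd88-KO array 2, and 0.42 with all 9 positive without Wildtype array 2. With the percentile over detected probes, median scaling or cyclic loess, 5 of 9 were positive, with medians of 0.25 to 0.26. A larger increase was measured for 6.05% of genes in the case of Ascl3, 6.86% for Ehf, 10.4% for Spdef, 11.2% for Elf5 and 18.6% for Barx2. The 3 members under an unadjusted p of 0.05 became 1 without Myd88-KO array 1, 2 without Myd88-KO array 2, 1 without Wildtype array 1 and 0 without Wildtype array 2.

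Scaling moved the balance of the whole array. Of all genes with an unadjusted p under 0.05, 59% were higher on the arrays labelled Myd88-KO as scaled here, 48.7% after quantile normalization, 46.7% with the percentile taken over detected probes, 41.5% after cyclic loess and 24.1% with median scaling. Ehf, Elf5, Spdef, Ascl3 and Barx2 stayed positive under all 4 of these. The number of members with an unadjusted p under 0.05 was 3 under the first 3 of these alternatives and 0 with median scaling. With median scaling, however, limma gave each member the same SE of 0.54, against 0.10 to 0.31 as scaled here. Its counts and shares thus reflect another estimate of spread as well as the scaling.

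**Figure D2:**
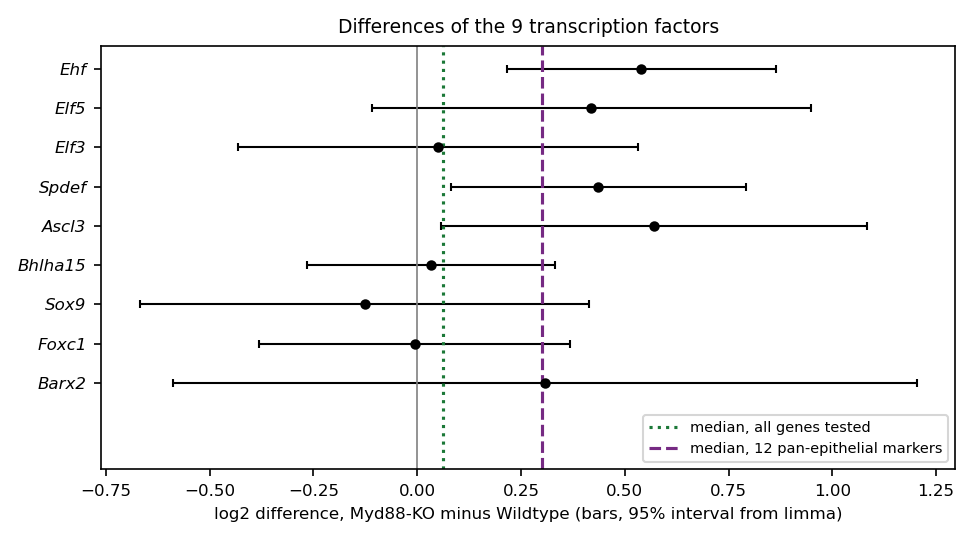
The horizontal axis gives the log2 difference, Myd88-KO minus Wildtype, of each transcription factor, with 95% intervals from limma over 2 arrays a label. Vertical lines mark the medians of all genes tested (0.06) and of 12 pan-epithelial markers (0.30). At this scaling the intervals of Ehf, Spdef and Ascl3 lie above 0, with lower ends of 0.22, 0.08 and 0.06, and those of the other 6 genes include 0.

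Comparisons between members on the same array do not depend on a scaling that shifts all probes of an array equally, though quantile normalization and cyclic loess can alter them. Ehf differed from Elf3 by 0.49 more on the arrays labelled Myd88-KO, from Foxc1 by 0.55 more and from Bhlha15 by 0.51 more, with no overlap between labels. Spdef over Bhlha15 was 0.40 higher and Ascl3 over Bhlha15 0.54 higher, again without overlap. Of the 20 ratios between a member whose labels were apart and a member whose labels were not, 16 did not overlap. Among Ehf, Elf5, Spdef and Ascl3 themselves, 1 of 6 ratios did not overlap (Ascl3 over Elf5, 0.15). These ratios were grouped by the members' own values and are descriptions.

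The glands hold several cell types, and fewer cells of a type cannot be told apart from less RNA per cell in such tissue. Epithelial markers were themselves higher on the arrays labelled Myd88-KO. Of 12 pan-epithelial markers, 11 were higher (10 or 11 under each other scaling) with a median of 0.30, and their summed signal was 479 and 485 times the 75th percentile against 333 and 342. Krt8 (difference 0.68) and Krt18 (0.54), keratins of simple epithelia, and the tight junction gene Cldn7 (0.41) had the smallest p. All 9 submandibular acinar markers tested were higher with a median of 0.37. After quantile normalization (median 0.097) or cyclic loess (0.22), 8 of 9 were higher. Whether the genes of this list are restricted to submandibular acini was not checked, and the labels name both glands. Of the 9, 7 had an unadjusted limma p under 0.05, all of them higher, beside 9.82% of all genes higher. Among them were Smgc (1.57), which encodes a submandibular gland protein, the chloride cotransporter gene Slc12a2 (0.42) and Prol1 (0.37).

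The members were therefore also set against these markers within each array, using the mean log2 signal of each list, a choice made after seeing the data. The mean of the pan-epithelial markers was 0.30 higher on the arrays labelled Myd88-KO. Against it, Ehf (0.24) and Spdef (0.13) were still higher with no overlap, whereas Ascl3 (0.27) and Elf5 (0.12) overlapped. For Spdef the labels nearly touched, at 3.5097 on Myd88-KO array 2 and 3.5065 on Wildtype array 2. The SE of its centred difference was 0.14. Sox9 (-0.43), Foxc1 (-0.31), Bhlha15 (-0.27) and Elf3 (-0.25) were lower than the markers without overlap. The mean of the acinar markers was 0.45 higher, and against it Ehf (0.09), Ascl3 (0.12), Elf5 (-0.03) and Spdef (-0.01) overlapped between labels. That mean includes Smgc, which differed by 1.57, whereas the next largest difference was 0.42 (Slc12a2) and the list's median 0.37. The mean without Smgc was not computed, so how far the centred values rest on this gene is not known. Sox9 (-0.58), Foxc1 (-0.46), Bhlha15 (-0.42) and Elf3 (-0.40) were again lower without overlap. Centring lowered all genes alike, to a median of -0.24 against the pan-epithelial mean and -0.39 against the acinar mean. Foxc1, Bhlha15 and Elf3 thus stood near the background in both. The share of all genes without overlap after centring was not counted. The part of the epithelial markers' shift in the members' differences was not tested beyond these values.

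Muscle, B cell, T cell and adipocyte markers had lower signals on the arrays labelled Myd88-KO, under each scaling tried. The summed signal of 11 skeletal muscle markers was 3.04 and 3.098 on the arrays labelled Myd88-KO and 22.9 and 130 on those labelled Wildtype, and all 11 were lower. B cell markers (8 of 8 lower) summed to 3.39 and 3.29 against 20.8 and 11.5, and T cell markers (10 of 10 lower) to 12.5 and 12.1 against 24.8 and 17.95. By flow cytometry of submandibular glands, the paper reported more B220-positive and CD138-positive cells in mice without MyD88. That assay counted cells of male mice, whereas the arrays measured RNA of glands labelled female. No marker was at 0, but 3 of the muscle, 3 of the B cell and 1 of the T cell markers were not well above background on either Myd88-KO array. Adipocyte markers (8 of 8 lower) summed to 155 and 241 against 330 and 335, fibroblast markers (7 of 8 lower) to 132 and 139 against 164 and 147, and parotid gland markers (5 of 6 lower) to 4159 and 2826 against 4266 and 4328. Macrophage markers (4 of 8 lower) overlapped between labels, at 35.6 and 30.7 against 38.5 and 29.2. Their part in the members' values was not tested. Lists of other gland compartments stood near 0, with medians of 0.02 for 5 sublingual (-0.036 with the percentile over detected probes), -0.06 for 11 granular convoluted tubule and -0.03 for 9 myoepithelial and basal markers. The tubule median was -0.20 after quantile normalization (2 of 11 higher) or cyclic loess (3 of 11 higher) and 0.037 without Wildtype array 2, and the myoepithelial median was 0.13 without that array. The sublingual median ran from -0.14 without Myd88-KO array 1 to 0.20 without Myd88-KO array 2.

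Genes linked to single members were taken from lists of textbook knowledge. Of 7 genes tested that depend on Bhlha15 in secretory cells, 6 were higher with a median of 0.34 (0.25 to 0.29 under the other scalings and normexp), although Bhlha15 itself differed by 0.03. Rab26, a GTPase of secretory granules, read 2.38 and 2.33 against 2.03 and 1.88 (difference 0.40), and the ER-phagy receptor gene Ccpg1 read 3.52 and 3.56 against 3.29 and 3.07 (0.36). Atp2c2, a calcium pump of the secretory pathway, was dim, at -2.05 and -2.05 against -2.40 and -2.37 (0.34). These 3 of 7 had an unadjusted limma p under 0.05, all of them higher, beside 9.82% of all genes higher. None of them passed after adjustment. The median of the 7 was 0.032 when centred on the pan-epithelial markers. Centred on the acinar markers, whose mean includes Smgc (1.57), it was -0.11 with 0 of 7 higher. Centring only subtracts the markers' mean shift from each difference, and a link between these genes and the markers was not tested. After quantile normalization or cyclic loess 5 of 7 were higher.

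Of 8 genes tested that depend on Spdef in mucous cells, 7 were higher with a median of 0.31. Under the other scalings and normexp, 6 of 8 were higher, with medians of 0.21 to 0.26. Of the 8, 2 had an unadjusted limma p under 0.05, both higher, beside 9.82% of all genes higher. These were Ern2, an ER stress sensor of mucous cells (difference 0.46), and Creb3l1, an ER-bound transcription factor (0.34). Their labels did not overlap, as was so for Spdef and for 52% of all genes tested. Of the 8 genes, 4 had labels that did not overlap, 3 with Myd88-KO higher and 1 lower (Creb3l4, -0.13). Ern2 was dim, at -3.19 and -3.10 on the arrays labelled Myd88-KO and -3.70 and -3.52 on those labelled Wildtype. The median of the 8 was 0.077, with 5 higher, without Wildtype array 2. Centred on the pan-epithelial markers the median of the 8 was 0.0071 and on the acinar markers -0.14. These values only subtract the markers' mean shift, and a link to the markers was not tested.

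Ascl3-expressing duct cells are related to ionocytes, but of 4 ionocyte genes tested 1 was higher, the median was -0.17 and 0 had an unadjusted p under 0.05. Without Wildtype array 2, however, 3 of 4 were higher with a median of 0.10, and without Myd88-KO array 1 2 of 4 with a median of -0.042, so the direction rested on single arrays. Atp6v1b1, a proton pump subunit, differed by -0.36 (SE 0.36) and the chloride channel gene Cftr by -0.18 (SE 0.25), each with overlapping labels. Of 6 cartilage genes that Sox9 controls, 5 were too dim to test, and the other, Col11a2, differed by -0.23 (SE 0.76; 0.025 with normexp).

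Of 8 close relatives of the SOX, helix-loop-helix, forkhead and BarH members 5 could be tested, with a median of 0.30 that did not hold without single arrays (0.0006 without Myd88-KO array 1, -0.0064 without Myd88-KO array 2, 0.14 without Wildtype array 2) and was 0.088 after quantile normalization. Ascl2, the nearest relative of Ascl3 tested and also a factor of T helper cells, had a difference of the opposite sign to that of Ascl3. It read -1.55 and -2.18 on the arrays labelled Myd88-KO and -0.13 and -0.50 on those labelled Wildtype (difference -1.55, SE 0.28). T cell markers were lower on the same arrays, and their part was not tested.

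Beyond the 9 members, 30 of 34 other epithelial gland transcription factors were tested. Their median was 0.07 (-0.0035 after cyclic loess), beside 0.31 for the members and 0.06 for all genes, 20 were higher and 10 lower. Without Wildtype array 1 the medians were -0.027 for these factors and -0.018 for the members, and without Myd88-KO array 2 they were 0.11 for each. With an unadjusted limma p under 0.05, 4 of the 30 were higher and 0 lower, beside 9.82% of all genes higher and 6.83% lower. That count stands close to the background. Etv5, an ETS factor downstream of fibroblast growth factors, had the largest difference (1.19, SE 0.24), reading 2.25 and 2.80 against 1.44 and 1.23. Etv4, a relative of Etv5, differed by 0.63 and Creb3l1 by 0.34.

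The other ETS genes differed in both directions. Of 19 other ETS genes tested, 7 were higher and 12 lower with a median of -0.11. That median was below 0 under every scaling and -0.040 without Wildtype array 2. It was -0.10 with the gene that was not above background at its bound. At an unadjusted limma p under 0.05, 4 were higher and 4 lower, beside 9.82% of all genes higher and 6.83% lower. Etv4 and Etv5 are among the 4 higher and were also counted with the other epithelial factors. Elf1 read 5.40 and 5.16 on the arrays labelled Myd88-KO and 4.44 and 4.42 on those labelled Wildtype, a difference of 0.85 (SE 0.13). Ets1, an ETS factor prominent in lymphocytes, differed by -1.39 (SE 0.28). Spib, an ETS factor of B cells, read -3.52 and -5.88 against 1.07 and -0.03 and was well above background on 3 of 4 arrays. B and T cell markers were lower on the same arrays as Ets1 and Spib, and their part was not tested.

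**Figure D3:**
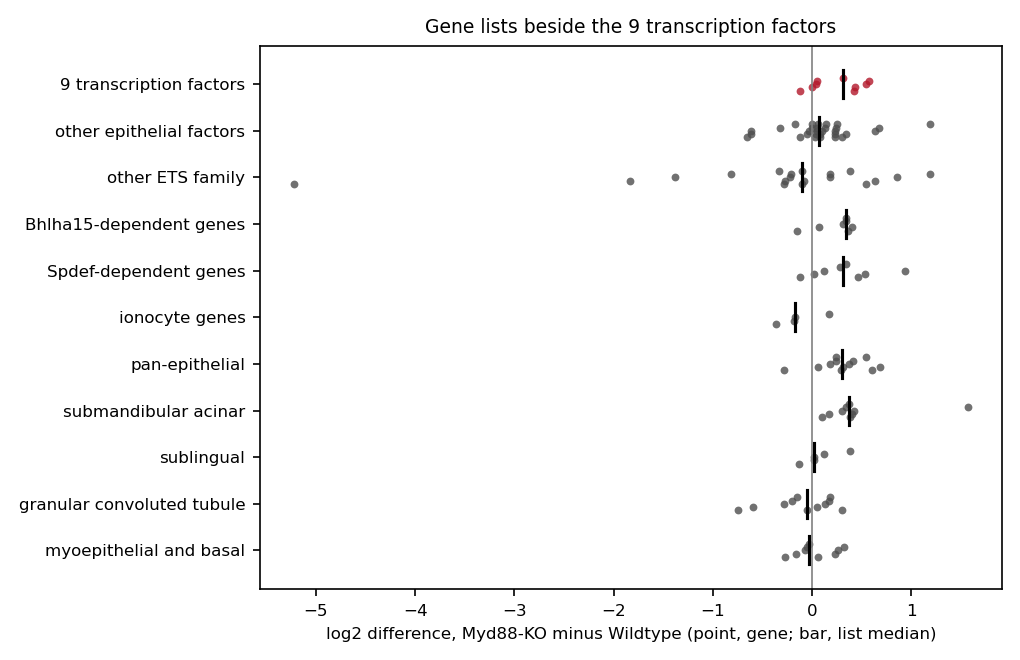
Each point is 1 gene and each bar the median of its list, on a horizontal axis of log2 difference, Myd88-KO minus Wildtype, at the scaling used here. The median of the 9 transcription factors (0.31) stands beside those of the pan-epithelial (0.30) and submandibular acinar (0.37) markers, while Sox9, Foxc1, Bhlha15 and Elf3 lie below every acinar marker, and the other ETS genes spread from -5.22 to 1.19.

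Arrays with like shares of detected probes were also compared as pairs, without a test. Myd88-KO array 1 minus Wildtype array 2 and Myd88-KO array 2 minus Wildtype array 1 gave 0.56 and 0.52 for Ehf, 0.59 and 0.55 for Ascl3, 0.57 and 0.31 for Spdef and 0.36 and 0.48 for Elf5. These 4 members were positive in each pair, which any pairing had to give because their labels did not overlap. For them the pairs show only the size of the differences. Barx2 gave -0.25 and 0.87, opposite signs.

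**Figure D4:**
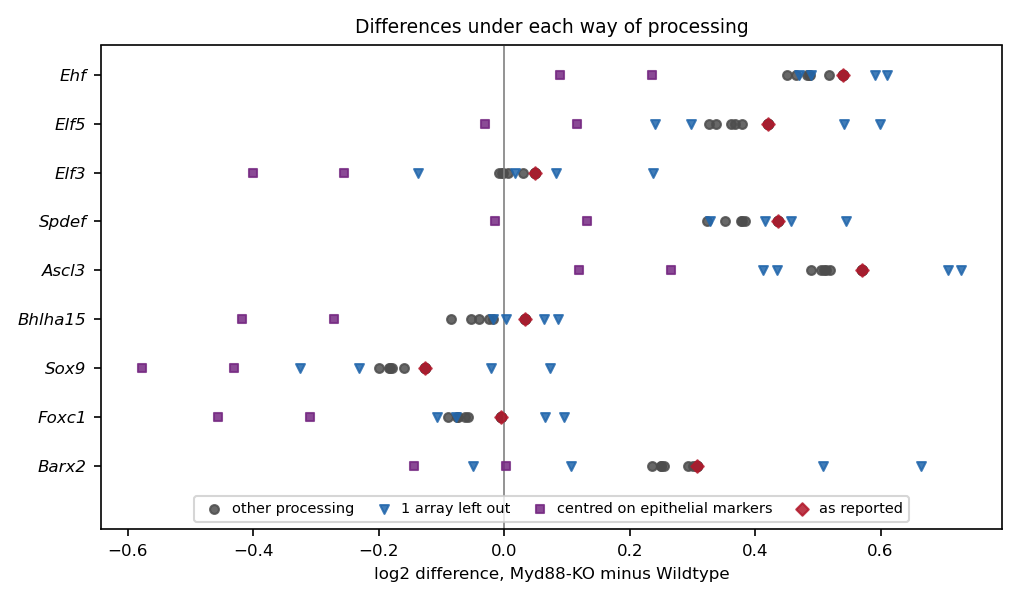
The horizontal axis gives the log2 difference, Myd88-KO minus Wildtype, of each transcription factor under every way of processing, including 4 with 1 array left out and 2 centred on epithelial markers. Ehf and Ascl3 stay above 0 throughout, Elf5 and Spdef lie just below 0 (-0.03 and -0.01) when centred on acinar markers, and the other 5 genes lie on both sides of 0.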

How the data were processed

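Gene expression was measured with 4 1-colour Agilent arrays, 2 labelled Myd88-KO and 2 labelled Wildtype, grouped by the titles in the labels. The authors deposited scanner output of Feature Extraction 10.7.3.1. The deposited processed signal is an intensity corrected for background by that software, with no normalization between arrays. A processed table was not used, because its 4 value columns matched no single sample.

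The log2 processed signal of 59305 non-control spots (55681 probes) was expressed relative to each array's 75th percentile. Outlier-flagged spots were left out and spots of a probe averaged. A probe was tested if, on both arrays of a label, a share above 0.5 of its spots were well above background. Each gene was represented by its brightest such probe. Labels were compared with limma 3.58.1 (lmFit, eBayes, R 4.3.3) over 22312 genes. The p-values were adjusted by Benjamini-Hochberg and 0.05 was the threshold. The procedure was tested on simulated data. Precision is limited by the number of arrays.

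Members and lists were chosen with earlier results of these data known. Genes named from a list are those without overlap and with an unadjusted p under 0.05 (at most 4 by p, 3 for markers), or otherwise the 2 with the largest difference. A gene that this rule names is not reported here. Muscle, lymphocyte, adipocyte, fibroblast, macrophage, parotid and other compartment markers were summarised as lists. Probe positions are those of the scanner files (NCBI37/mm9), and no annotation of that build was used, so exon and UTR positions are not given. Of the genes tested, 13853 (62.1%) had a symbol in the RefSeq table (GRCm38.p6). The alternatives were another background correction (normexp, offset 50), 4 other scalings, no or a stricter filter, flagged spots kept, the mean of probes, the methods' t-test, trended and robust moderation, a replicate block and each array left out. Figures were drawn with matplotlib 3.10.9.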

Additional observations from a re-analysis of the deposited data

How the results depend on the processing

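Apart from the discarded centring on the acinar median level described below, only Ehf with trended and robust moderation passed the adjusted threshold among the members (adjusted p = 0.0487, range 0.0487 to 1 over its alternatives). That setting called 482 genes of the whole array, 1 member, 1 other epithelial factor, 1 other ETS gene (Elf1) and 1 linked gene (Ascl2). Normexp background correction called 79 genes, median scaling 402, of which 2 were ETS genes (Spib and Spic), and the methods' t-test 1 after Benjamini-Hochberg adjustment (2935 at the methods' own threshold, 1 of them a member). The other settings called 0, again apart from that discarded centring. At an unadjusted p under 0.05 the count was 3715 as reported and 995 with median scaling. The causes were not tested.

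Ehf and Ascl3 kept their direction in all 19 alternatives. Bhlha15 reversed to -0.040 with normexp, -0.053 with quantile normalization, -0.024 with the percentile over detected probes, -0.018 with median scaling and -0.084 with cyclic loess. Elf3 reversed to -0.0078 with the percentile over detected probes, to -0.0022 with median scaling and to -0.0039 with cyclic loess. With 1 array left out the differences were 0.47 to 0.61 for Ehf, 0.33 to 0.54 for Spdef, 0.41 to 0.73 for Ascl3, 0.24 to 0.60 for Elf5, -0.049 to 0.66 for Barx2, -0.33 to 0.073 for Sox9, -0.14 to 0.24 for Elf3, -0.018 to 0.0855 for Bhlha15 and -0.11 to 0.10 for Foxc1. The label with 1 array left was assumed to vary like the other.

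Centring on marker means was added after seeing the data. It reversed Elf3 (-0.25) and Bhlha15 (-0.27) with the pan-epithelial mean. With the acinar mean it reversed Elf3 (-0.40), Elf5 (-0.031), Spdef (-0.015), Bhlha15 (-0.42) and Barx2 (-0.14). It moved the median of all genes from 0.06 to -0.24 and -0.39. The median level of each list had been used first and was replaced by the mean once its result had been seen. With the acinar list the median level shifted by 1.27, because it was the level of 2 different genes on different arrays, and 19802 genes and all 9 members were then called, each member lower. With the pan-epithelial list it shifted by 0.26 and called 0.

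Same-numbered arrays deviated oppositely (correlation -0.373), so the replicate numbers were not taken as pairs. With the replicate block 0 genes and 0 members were called (2410 genes and 1 member at an unadjusted p under 0.05). With the crossed pairing 0 were called (4157 and 4 unadjusted).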

Other observations

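Ehf and Elf5 lie side by side, with 184131 bases between their probes and no other tested gene between them. Of 20 other genes tested within 1 Mb on either side, 11 were higher on the arrays labelled Myd88-KO and 7 had labels that did not overlap, beside 59.6% higher and 52% not overlapping among all genes tested, so the neighbours did not stand above the background. D430041D05Rik was the neighbour with the largest increase (0.62, SE 0.20, adjusted p = 0.273 in limma), and Apip, an enzyme of methionine salvage, differed by -0.29 (SE 0.12). Both were named after their values were seen.

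The 3 features whose pattern over the 4 arrays was closest to that of Ascl3 carried no gene symbol on the array, with root mean square distances of 0.017 to 0.027 after centring each feature on its own mean.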
